A study of Mus musculus with 8 samples.

Results

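The NR4A family of orphan nuclear receptors consists of Nr4a1, Nr4a2 and Nr4a3, and all 3 were described across RNA-seq libraries of the mouse medial prefrontal cortex (mPFC). They are 3 of the 54532 genes of the count table, and all 3 were among the 16745 genes that passed the filter on low counts. The genes were selected by name as 1 family, after their raised counts in the retrieval libraries were already known. Their levels and fold changes are therefore given as a description without a test, and tests are confined to other genes. The 4 non-retrieval and 4 retrieval libraries came from adult male C57BL/6 mice. Each library was made from the mPFC of 2 to 3 pooled mice. The stated time of collection is 1 h after a test of conditioned place preference (CPP) for METH. Whether the non-retrieval mice took that test is not stated. In CPP, an animal learns to prefer a compartment paired with a drug, and the comparison asked what differs when that memory is retrieved. The labels record no genotype or other agent, and they do not say whether the non-retrieval mice entered the apparatus, so retrieval cannot be told apart from exposure and handling. Libraries held 25013503 to 29547978 counts. Spread between libraries is spread between pools, not between single mice.

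NR4A proteins are transcription factors with the zinc-finger DNA-binding domain of nuclear receptors, but their ligand-binding pocket is closed by bulky side chains, so their activity follows mainly from how much protein is made. They bind DNA as monomers, as dimers with each other, and, for Nr4a1 and Nr4a2, as dimers with retinoid X receptors. All 3 genes are immediate early genes, which neurons transcribe soon after calcium and cAMP signals through factors such as CREB, its CRTC coactivators and MEF2. In the brain the family is known for its role in forming long-term memory, and Nr4a2 for keeping midbrain dopamine neurons alive.

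In the build GRCm38, Nr4a1 (ENSMUSG00000023034) lies on the plus strand of chromosome 15 from 101254269 to 101274795. Nr4a2 (ENSMUSG00000026826) lies on the minus strand of chromosome 2 from 57106830 to 57124003, and Nr4a3 (ENSMUSG00000028341) on the plus strand of chromosome 4 from 48045153 to 48086447. The 3 genes thus sit on different chromosomes, and no other gene of the table overlaps any of them. Reads of transcripts absent from the table, such as antisense RNA, were not assessed. GENCODE M21 has the same coordinates and lists 4 transcripts for Nr4a1, 6 for Nr4a2 and 4 for Nr4a3. Counts were per gene, so the use of these transcripts was not analysed here.

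The promoters are shown because all 3 genes were higher in retrieval and CREB is a known regulator of the family. Each window runs from 250 bases before to 50 bases after the start site in RefSeq (GRCm38.p6), 5′ to 3′ on the strand of the gene, and capitals mark the CRE half-site TGACG or, on the other strand, CGTCA. The windows are chr15:101266596-101266895 for Nr4a1, chr2:57123954-57124253 for Nr4a2 and chr4:48045055-48045354 for Nr4a3.
Nr4a1: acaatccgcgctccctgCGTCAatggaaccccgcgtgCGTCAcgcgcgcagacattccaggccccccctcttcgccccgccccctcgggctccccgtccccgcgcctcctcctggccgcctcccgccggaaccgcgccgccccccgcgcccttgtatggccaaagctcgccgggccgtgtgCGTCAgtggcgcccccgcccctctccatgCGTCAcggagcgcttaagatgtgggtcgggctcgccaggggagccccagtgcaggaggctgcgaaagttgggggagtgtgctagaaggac
Nr4a2: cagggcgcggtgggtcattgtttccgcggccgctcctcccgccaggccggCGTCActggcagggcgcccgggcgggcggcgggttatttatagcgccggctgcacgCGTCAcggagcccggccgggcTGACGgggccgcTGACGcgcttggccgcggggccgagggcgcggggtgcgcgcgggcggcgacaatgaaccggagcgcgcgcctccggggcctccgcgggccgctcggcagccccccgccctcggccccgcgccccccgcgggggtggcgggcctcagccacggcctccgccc
Nr4a3: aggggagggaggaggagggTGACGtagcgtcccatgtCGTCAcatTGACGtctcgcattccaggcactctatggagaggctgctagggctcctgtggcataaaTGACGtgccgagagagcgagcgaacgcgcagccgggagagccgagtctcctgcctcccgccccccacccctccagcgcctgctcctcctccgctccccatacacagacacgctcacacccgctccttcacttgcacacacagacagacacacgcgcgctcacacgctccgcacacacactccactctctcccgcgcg

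Each window held 4 CRE half-sites, and none held the full palindrome TGACGTCA. A count of 4 or more was found in 0.231% of the 32851 promoter windows of the RefSeq table, in 0.445% of the 15283 windows of tested genes, and in 0.563% of the 6218 windows whose GC content was at least 64.7%, the lowest of the 3. At least 1 half-site was present in 20.8% of all windows, in 29.2% of those of tested genes and in 32.4% of the GC-rich ones. The sites lie between -233 and -36 from the start in Nr4a1, between -200 and -107 in Nr4a2, and between -231 and -143 in Nr4a3. GC content was 72.3% in Nr4a1, 81.7% in Nr4a2 and 64.7% in Nr4a3. The median was 52.7% over all windows and 60.3% over those of tested genes.

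The Nr4a2 window alone of the 3 held a match to the MEF2 consensus, at -167 to -158, which 3.19% of all windows have. A TATAAA match on the other strand, present in 13.6% of windows, lies inside it at -164 to -159, so these letters overlap and cannot be counted apart. No window held the NBRE AAAGGTCA, the element NR4A monomers bind (1.51% of all windows), the AP-1 site TGACTCA (5.20%), the EGR site GCGTGGGCG (0.612%) or a CArG box (1.63%), each searched on both strands. For comparison, 12 of the 17 rapid activity-regulated transcription factors listed below had a window in the table, 11 of these 12 had at least 1 half-site, and none had more than 2. The start used for Nr4a1 lies 12577 bases inside the gene model of the count table, which begins further upstream. A match is a description of letters and was not tested as a binding site.

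**Figure D1:**
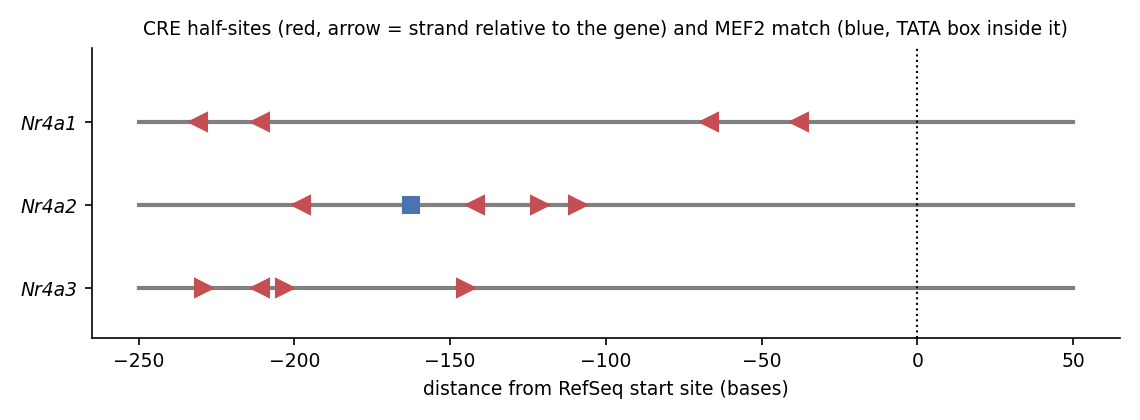
Positions of CRE half-sites (red, pointing along the strand relative to the gene) in the promoter windows of the 3 NR4A genes, with the distance from the RefSeq start site in bases on the horizontal axis. Each gene has 4, all upstream of the start, and the blue square marks the MEF2 match of Nr4a2.

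The 3 genes were 2.77 to 3.43 times as abundant in retrieval as in non-retrieval libraries, as ratios of group means. Nr4a1, also called Nur77, was the most abundant member. In CPM (the count as a rate over the library total, scaled with TMM factors so that most genes keep the same level) it stood at 53.9, 83.2, 55.4 and 89.9 in non-retrieval replicates 1 to 4 and at 186, 210, 189 and 198 in retrieval replicates 1 to 4. The lowest retrieval library lay 2.07 times above the highest non-retrieval library, and non-retrieval replicates 2 and 4 stood above the other 2 of their group. The mean went from 70.6 ± 18.6 to 196 ± 10.8 CPM (SD, n = 4), and the log2 ratio of retrieval over non-retrieval, as fitted by edgeR, was 1.47 ± 0.13 (SE).

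Nr4a2, also called Nurr1, was the least abundant. Its levels were 8.63, 11.2, 9.02 and 9.18 CPM in non-retrieval replicates 1 to 4 and 28.5, 28.5, 27.2 and 34.5 CPM in retrieval replicates 1 to 4. Non-retrieval replicate 2 and retrieval replicate 4 were the high libraries of their groups, and the groups were 2.43-fold apart at their nearest libraries. The mean went from 9.51 ± 1.16 to 29.7 ± 3.29 CPM (SD, n = 4), and the log2 ratio was 1.65 ± 0.10 (SE).

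Nr4a3, also called Nor1, had the highest fold change of the family, though its distance from Nr4a2 lay within their standard errors. It measured 32.0, 34.1, 28.6 and 25.2 CPM in non-retrieval replicates 1 to 4 and 104, 98.7, 90.9 and 118 CPM in retrieval replicates 1 to 4. Retrieval replicate 4 was again the highest, and the nearest libraries of the groups were 2.66-fold apart. The mean went from 30.0 ± 3.92 to 103 ± 11.6 CPM (SD, n = 4), and the log2 ratio was 1.78 ± 0.10 (SE).

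**Figure D2:**
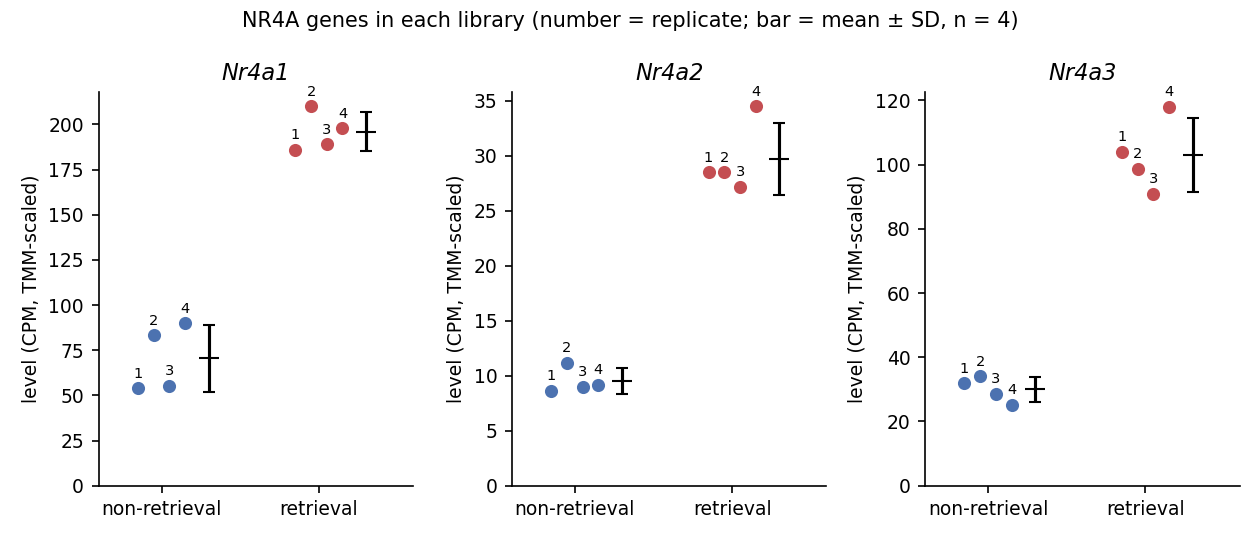
Level of each NR4A gene in CPM by group, with a separate axis for each gene; points are libraries numbered by replicate, and bars give the mean ± SD (n = 4). In each panel all 4 retrieval libraries lie above all 4 non-retrieval libraries.

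For all 3 genes the groups did not overlap, a pattern with retrieval on top that 6.59% of the tested genes showed. This share is printed for scale only, since the genes were chosen with the contrast known. Ordered by log2 ratio, Nr4a3 was in place 10, Nr4a2 in place 19 and Nr4a1 in place 27 of the 16745 tested genes, whose median was -0.009. More RNA per cell and more cells expressing a gene cannot be told apart in tissue of this kind. Counting error was smaller than the spread between libraries. Nr4a2 had the fewest reads, 245 to 279 per non-retrieval library and 711 to 954 per retrieval library, so counting alone gives a coefficient of variation of 6.18% and 3.49%, against 12.2% and 11.1% observed.

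The shares of the members in the family overlapped between groups. Divided by the length of the gene model, Nr4a1 stood at 20.1 ± 5.31, Nr4a3 at 5.01 ± 0.654 and Nr4a2 at 2.34 ± 0.287 CPM per kb in non-retrieval (SD, n = 4). In retrieval the order was the same, with 55.8 ± 3.08, 17.2 ± 1.93 and 7.32 ± 0.809 CPM per kb (SD, n = 4), and in neither group did the libraries of neighbouring members overlap. Nr4a1 made up 67.3% to 79.8% of the summed per-length level of the family in non-retrieval libraries and 66.6% to 71.8% in retrieval libraries. Nr4a3 contributed 13.1% to 23.4% and 19.8% to 23.3%, and Nr4a2 7.05% to 9.75% and 8.43% to 10.1%. These ranges overlap for every member, while the summed level went from 27.5 ± 5.38 to 80.3 ± 4.39 CPM per kb (SD, n = 4).

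Among the 49 nuclear receptor genes of the mouse, retrieval libraries placed the NR4A genes higher in the order of per-length level. Nr4a1 was in place 6 in non-retrieval, where its libraries (15.4 to 25.6 CPM per kb) overlapped those of the clock repressor gene Nr1d2 (18.6 to 22.0) just above it and of Nr2f1 (15.4 to 18.1) just below. In retrieval it was in place 2, with libraries (53.1 to 59.9) apart from the thyroid hormone receptor gene Thra above (168 to 204) and from Nr1d1 below (39.9 to 47.8). Nr4a3 went from place 15 to place 7, where it overlapped Nr1d2 (18.3 to 22.9) and Nr1h2 (13.3 to 17.0), and Nr4a2 from place 24 to place 14, where it overlapped Rxra (6.30 to 7.87) but not Nr2c2 (4.95 to 5.29). Without division by length the places in retrieval were 2 for Nr4a1, 6 for Nr4a3 and 19 for Nr4a2.

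**Figure D3:**
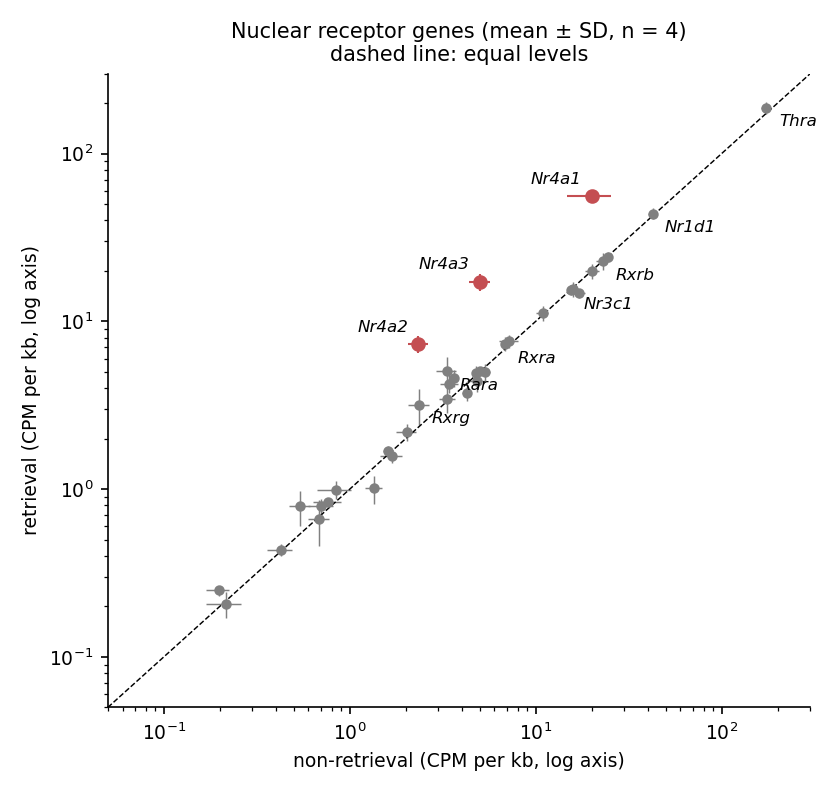
Mean per-length level of nuclear receptor genes in non-retrieval (horizontal) and retrieval (vertical) libraries, in CPM per kb on log axes with SD (n = 4), for the 36 receptors that reached 0.1 CPM per kb in either group. The 3 NR4A genes (red) lie well above the dashed line of equal levels, at which most other receptors sit.

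Within groups the members did not vary as 1 unit. Nr4a1 had the widest spread in non-retrieval, with a coefficient of variation of 26.4% against 2.31% from counting, and the narrowest in retrieval (5.51%). Arc, which regulates AMPA receptors at synapses, was high in the same non-retrieval libraries, replicates 2 and 4. It stood at 120 and 145 CPM there, against 61.6 and 62.5 CPM in replicates 1 and 3. Arc was picked for its high r with Nr4a1 over the 8 libraries, so this likeness follows in part from the choice. Nr4a3 instead was lowest in non-retrieval replicate 4, where Nr4a1 was highest. For deviations from the group means of log2 CPM over the 8 libraries, r was 0.69 for Nr4a2 with Nr4a3, 0.48 for Nr4a1 with Nr4a2 and -0.18 for Nr4a1 with Nr4a3. In non-retrieval alone (n = 4) these were 0.50, 0.61 and -0.26, and in retrieval alone (n = 4) 0.94, 0.23 and 0.14. These values describe 8 libraries that share depth and tissue and carry no test.

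**Figure D4:**
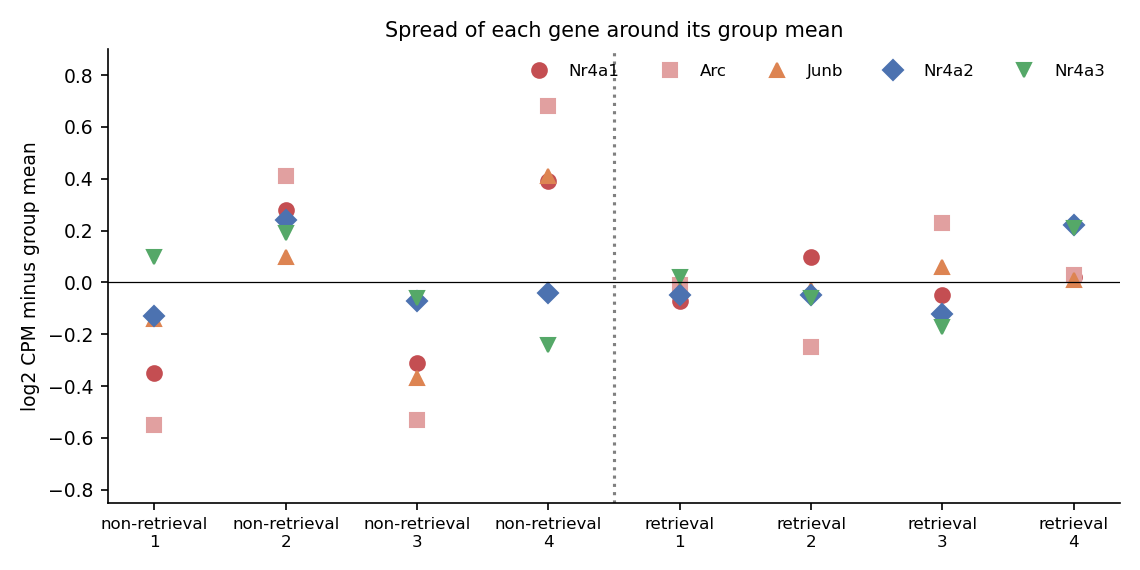
Deviation of log2 CPM from the group mean (vertical axis) in each of the 8 libraries for the 3 NR4A genes, Arc and Junb. In non-retrieval replicate 4, Nr4a1 (0.39), Arc (0.68) and Junb (0.41) lie above their group mean and Nr4a3 (-0.24) lies below it. Arc and Junb were picked for their likeness to Nr4a1 over the same libraries.

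The genes whose log2 CPM followed each member most closely were taken from 13245 protein-coding genes with a mean of at least 1 CPM. For Nr4a1 these were Junb, an AP-1 subunit, Arc, the Notch regulator Numb, the pseudokinase gene Trib1 and the zinc-finger factor gene Egr1, with r over the 8 libraries of 0.988 to 0.982. After removal of the group means r was 0.89 for Arc, 0.87 for Junb, and 0.81 to 0.82 for the other 3. Numb differed little between groups (37.4 and 43.6 CPM), since r does not depend on the size of a change. For Nr4a2 they were Spry4, an inhibitor of Ras and MAP kinase signalling, Midn, the AP-1 gene Fosl2, the polo-like kinase gene Plk3 and the period gene Per1, with r of 0.995 to 0.991 (0.88 to 0.70 within groups). For Nr4a3 they were Mapk1ip1l, the insulin receptor substrate gene Irs2, the DNA demethylating enzyme gene Tet3, Reep3 and Fosl2, with r of 0.993 to 0.989 (0.96 for Reep3 and 0.70 to 0.83 for the others within groups). Fosl2 alone was near 2 members. The group difference enters each r over 8 libraries. The within-group values leave it out, but they are not independent of the choice of genes. The genes were picked from 13245 by an r that includes the same deviations, so high within-group values follow in part from that choice.

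Next to Nr4a1 on chromosome 15, Grasp, which encodes the synaptic scaffold tamalin, rose in retrieval. It lies 21513 bases before Nr4a1 and went from 47.0 ± 4.70 to 70.8 ± 6.52 CPM (SD, n = 4), with a log2 ratio of 0.59 ± 0.08 (SE; adjusted p = 0.000464 in edgeR), while Atg101, an autophagy gene 9477 bases after Nr4a1, had a log2 ratio of 0.02 (adjusted p = 0.941 in edgeR). Grasp measured 41.4 to 52.5 CPM in non-retrieval and 61.2 to 75.8 CPM in retrieval, without overlap. Of all tested genes, 6.59% had every retrieval library on top. With the oligodendrocyte markers as a covariate the log2 ratio of Grasp came to 0.49 (adjusted p = 0.0522 in edgeR). The nearest coding genes around the other 2 members did not pass (edgeR adjusted p 0.126 to 0.820), but all lie further away than Grasp. Around Nr4a2 the log2 ratios were -0.25 for the potassium channel gene Kcnj3 (1508685 bases away) and 0.03 for Gpd2 (113632 bases). Around Nr4a3 they were -0.09 for Sec61b (561911 bases) and -0.07 for Stx17 (38468 bases). Of 6 tested genes within 100 kb of Nr4a1, 1 was called higher, against 3.67% of all tested genes. No tested gene lay within 100 kb of Nr4a2, and the 1 within 100 kb of Nr4a3 was not called. A local effect was not tested.

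The retinoid X receptors pair with Nr4a1 and Nr4a2. Rxra stood at 37.6 ± 0.565 and 40.1 ± 3.88 CPM, Rxrb at 85.2 ± 7.47 and 84.6 ± 9.76 CPM, and Rxrg at 5.42 ± 0.711 and 7.32 ± 1.77 CPM in non-retrieval and retrieval (SD, n = 4). With the filter and without a block, 0 of the 3 genes were called by edgeR, DESeq2 or limma-voom, and 1, Rxrg, had an unadjusted p under 0.05 (log2 ratio 0.44, SE 0.16; edgeR adjusted p = 0.135). With no filter on low counts, or with the replicate number as a block, edgeR called 1 of the 3, higher in retrieval. Among all tested genes 4.57% were called, 3.67% higher and 0.902% lower. An unadjusted p under 0.05 was found for 3096 of the 16745. Calls over all genes numbered 766 in this fit, 1055 with DESeq2, 1619 with limma-voom, 1139 with no filter and 1791 with the block. They numbered 1288 with the length and GC offset, 1360 without retrieval replicate 1 and 169 with the oligodendrocyte covariate. Of the other 46 nuclear receptors, 33 were tested, 1 rose, 0 fell and 32 did not pass, with a median log2 ratio of 0.04. The gene that rose was Rara, a retinoic acid receptor, from 14.5 ± 1.81 to 22.0 ± 4.65 CPM (SD, n = 4), with a log2 ratio of 0.60 ± 0.13 (SE; adjusted p = 0.0137 in edgeR). With the oligodendrocyte markers as a covariate its log2 ratio was 0.24 (adjusted p = 0.515 in edgeR) and the list had 0 calls. The list had 3 calls without retrieval replicate 1, with DESeq2 or with limma-voom and 4 with no filter, all higher, but 4 with the length and GC offset, of which 2 were higher and 2 lower, and 5 with the block, of which 4 were higher. Nr2e1 (log2 ratio 0.33), Ppard (0.31) and Nr2f1 (-0.22) had the next smallest p (edgeR adjusted p 0.0527 to 0.0965), and 9 receptors were under 0.05 unadjusted.

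Of 28 regulators known to act upstream of the NR4A genes, 27 were tested, 1 rose, 0 fell and 26 did not pass (median log2 ratio 0.08). The share of calls is near the 3.67% of all tested genes that were called higher. An unadjusted p under 0.05 was found for 10 of the 27, against 3096 of the 16745 tested genes. The call was Srf, the serum response factor gene and itself activity-regulated, which went from 56.0 ± 6.75 to 77.1 ± 7.67 CPM (SD, n = 4), with a log2 ratio of 0.46 ± 0.09 (SE; adjusted p = 0.00570 in edgeR). The CREB coactivator gene Crtc3 (0.31), and Hdac5 (0.25) and Hdac4 (0.21), which encode deacetylases that hold MEF2 inactive, had edgeR adjusted p of 0.0524 to 0.0816. With the oligodendrocyte covariate Srf had a log2 ratio of 0.30 (adjusted p = 0.273 in edgeR). Calls over all genes numbered 766 in the edgeR fit, 1055 with DESeq2, 1619 with limma-voom and 1791 with the block. They numbered 1288 with the length and GC offset and 1360 without retrieval replicate 1. The list had 2 calls without non-retrieval replicate 2, with no filter or at a mean of at least 1 CPM, and 4 with DESeq2, all higher. Members also fell under some alternatives: 7 of 8 calls were higher without retrieval replicate 1, 7 of 9 with limma-voom, 9 of 10 with the replicate block and 2 of 5 with the length and GC offset.

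Of 20 coregulators, which NR4A proteins recruit or are held by, 3 rose, 0 fell and 17 did not pass (median log2 ratio 0.12), while 3.67% of all tested genes rose. Among them were Sfpq (0.30) and Ep300, an acetyltransferase (0.33), with edgeR adjusted p of 0.0131 to 0.0261, and Crebbp, the partner of CREB, had a log2 ratio of 0.26 (edgeR adjusted p = 0.0631). The list had 0 calls without non-retrieval replicate 4 or retrieval replicate 3, and 1 without non-retrieval replicate 3 or retrieval replicate 4, and with the oligodendrocyte covariate. It had 5 with no filter, 6 with DESeq2 or limma-voom and 7 with the replicate block, all higher. Calls over all genes numbered 766 in the edgeR fit, 1139 with no filter, 1055 with DESeq2, 1619 with limma-voom and 1791 with the block. They numbered 330 to 420 without replicate 3 or 4 of either group. An unadjusted p under 0.05 was found for 9 of the 20 coregulators, against 3096 of the 16745 tested genes.

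Genes reported elsewhere as NR4A targets were read in 4 lists, beside the 3.67% of all tested genes that rose. Both hippocampal targets rose. Fosl2 went from 26.9 ± 5.05 to 87.6 ± 7.85 CPM (SD, n = 4), with a log2 ratio of 1.71 ± 0.11 (SE; adjusted p = 3.52e-08 in edgeR), and Bdnf, the neurotrophin gene, from 28.4 ± 1.63 to 44.7 ± 5.69 CPM (SD, n = 4), with a log2 ratio of 0.65 ± 0.09 (SE; adjusted p = 0.000339 in edgeR). Both are activity-regulated in their own right, and neither was independent of earlier results of these libraries.

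Of 14 chaperone and folding genes of the endoplasmic reticulum, 8 rose, 0 fell and 6 did not pass (median log2 ratio 0.26). The share that rose over all tested genes was 3.67%. Calls over all genes numbered 766 in this fit, 657 with upper-quartile factors and 169 with the oligodendrocyte covariate. They numbered 330 to 618 when 1 of the libraries named below was left out. Sdf2l1 went from 11.6 ± 0.969 to 18.2 ± 1.73 CPM (SD, n = 4), with a log2 ratio of 0.66 ± 0.09 (SE; adjusted p = 0.000572 in edgeR). The disulfide isomerase gene Pdia4 (0.51), Hspa5, which encodes the chaperone BiP (0.40), and Xbp1, a factor of the unfolded protein response (0.29), rose as well, with edgeR adjusted p of 0.000385 to 0.0162. The list had 3 calls when replicate 4 of either group was left out, and also with the oligodendrocyte covariate, 4 without non-retrieval replicate 1, and 5 when non-retrieval replicate 2, non-retrieval replicate 3 or retrieval replicate 3 was left out or upper-quartile factors were used. Xbp1 was not called when replicate 4 of either group was left out, or with the oligodendrocyte covariate, at log2 ratios of 0.25 to 0.29 (adjusted p 0.0590 to 0.185 in edgeR). With that covariate Sdf2l1 had a log2 ratio of 0.58 (adjusted p = 0.0522 in edgeR), while Pdia4 (0.58) and Hspa5 (0.52) were still called.

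Among 10 targets known from midbrain dopamine neurons, 8 were tested, and 1 rose, 0 fell and 7 did not pass (median log2 ratio 0.12). Over all tested genes 3.67% rose. Of the 8, 3 had an unadjusted p under 0.05, as did 3096 of the 16745 tested genes. Dlk1, which encodes a Notch ligand relative, rose from 1.06 ± 0.397 to 2.50 ± 0.244 CPM (SD, n = 4), with a log2 ratio of 1.25 ± 0.25 (SE; adjusted p = 0.00769 in edgeR), at 16 to 37 reads per non-retrieval library and 62 to 77 per retrieval library. Drd2 (log2 ratio 1.23) and Ddc (0.35) were under 0.05 unadjusted but did not pass (edgeR adjusted p 0.072 and 0.14). Ddc measured 3.53 to 4.75 CPM in non-retrieval and 5.18 to 5.68 CPM in retrieval. Drd2 measured 1.21 to 1.58 and 1.88 to 7.45 CPM, with 7.45 CPM in retrieval replicate 2. Neither gene had overlapping groups. Th, the rate-limiting enzyme of dopamine synthesis, stood at 3.67 ± 0.985 and 3.37 ± 0.374 CPM (SD, n = 4), with a log2 ratio of -0.12 (adjusted p = 0.776 in edgeR). The dopamine transporter gene Slc6a3 stood at 0.0832 and 0.0709 CPM, below the filter. The list had 2 calls without retrieval replicate 1 or 4, with no filter, with the block or with the length and GC offset. Calls over all genes numbered 1360 and 397 without these libraries, 1139 with no filter, 1791 with the block and 1288 with the offset. With the oligodendrocyte covariate the log2 ratio of Dlk1 was 1.23, near its value without it, at an adjusted p of 0.125 in edgeR. Of 10 targets in the glucose metabolism of muscle and liver, 6 were tested and 0 were called by edgeR, DESeq2 or limma-voom, with 1 under 0.05 unadjusted (median log2 ratio -0.10). That gene was the phosphofructokinase gene Pfkm (-0.14), and the others were the insulin-regulated glucose transporter gene Slc2a4 (0.76), Pgam2 (-0.20), Pygm (-0.14), Eno3 (-0.06) and Phkg1 (0.01), with edgeR adjusted p of 0.241 to 0.985.

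Of 17 other transcription factors of the rapid activity response, 15 rose, 0 fell and 2 did not pass (median log2 ratio 1.07), against 3.67% of all tested genes that rose. The NR4A values of 1.47, 1.65 and 1.78 lay inside the range of these factors, below Egr2 (3.74), Fos (2.21), Fosb (1.88) and Egr4 (1.88), and beside Egr1 (1.72). The 2 that did not pass were Atf3 (0.65, edgeR adjusted p = 0.295) and Npas4, a calcium-induced factor (-0.06, edgeR adjusted p = 0.879). These factors were listed with earlier results of the libraries known. The list had 12 calls with the oligodendrocyte covariate and 13 to 15 when 1 library was left out. Over all genes the calls numbered 169 and 330 to 1360. Jun was not called in 8 of 18 alternatives and Ier2 in 6.

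**Figure D5:**
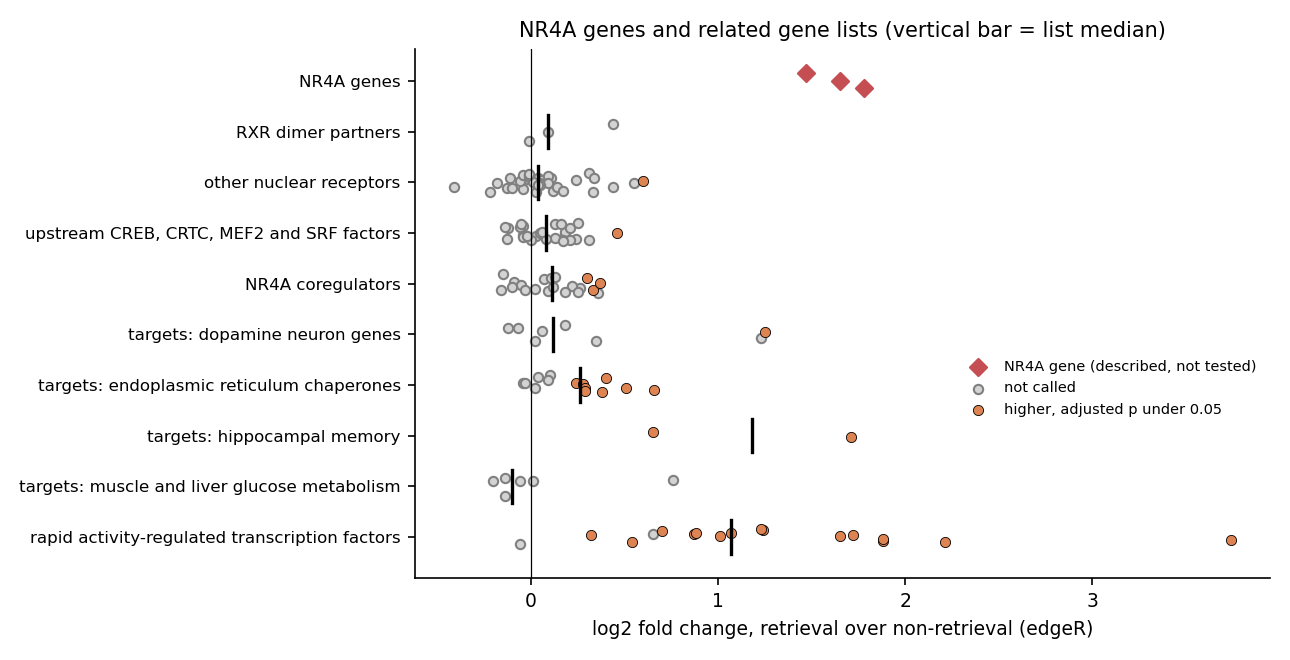
Log2 ratio of retrieval over non-retrieval (horizontal axis) for the 3 NR4A genes (red diamonds) and the tested genes of each list, orange where called higher and grey where not, with the list median as a bar. The NR4A genes lie between 1.47 and 1.78, among the rapid factors and above every tested nuclear receptor.

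Markers of the dissected tissue and of cells that can carry NR4A transcripts were read beside these values. Over all tested genes edgeR called 4.57%, and 3096 of 16745 had an unadjusted p under 0.05. Calls over all genes numbered 766 in that fit, 1055 with DESeq2, 1619 with limma-voom and 1791 with the block. They numbered 169 with the oligodendrocyte covariate and 330 to 1360 when 1 library was left out. All 10 markers of cortical excitatory neurons were present, with a summed level of 2720 to 3082 CPM in non-retrieval and 2729 to 3021 CPM in retrieval and 0 called by edgeR (2 under 0.05 unadjusted, 1 called by limma-voom, 2 with the block). For the claustrum and layer 6b, cells known for high Nr4a2, 9 of 10 markers were in the table and summed to 146 to 164 and 149 to 185 CPM, of which Ctgf rose and the opioid receptor gene Oprk1 fell (edgeR adjusted p 0.0193 to 0.0207). The groups overlapped for Ctgf (16.5 to 22.8 and 21.2 to 41.9 CPM), and the list had 1 call when replicate 2 or 4 of non-retrieval or replicate 4 of retrieval was left out and 0 with the oligodendrocyte covariate. Microglia and macrophage markers summed to 328 to 343 and 300 to 353 CPM, and endothelial and mural markers to 265 to 280 and 255 to 300 CPM, with 0 of 8 called in each by edgeR and DESeq2, 1 and 2 under 0.05 unadjusted, and 1 endothelial or mural gene called by limma-voom or without non-retrieval replicate 2 or retrieval replicate 1. The 8 astrocyte markers summed to 4422 to 4840 and 4636 to 5446 CPM (0 called by edgeR, 1 under 0.05 unadjusted, 1 called by limma-voom or without retrieval replicate 3). Markers of circulating monocytes and neutrophils were near 0, with 5 of the 7 under 0.1 CPM on average. They summed to 1.05 to 1.28 CPM in non-retrieval and 0.71 to 0.942 CPM in retrieval, without overlap. The 6 markers of midbrain dopamine neurons summed to 7.16 to 9.62 CPM in non-retrieval and 7.38 to 8.92 CPM in retrieval, mostly from Th and the monoamine transporter gene Slc18a2 (4.10 and 4.65 CPM), while Slc6a3 and Pitx3 were under 0.1 CPM in both group means and En1 and Foxa2 had no read.

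The 10 mature oligodendrocyte markers did differ between groups, at 3398 to 4008 CPM in non-retrieval and 4121 to 5980 CPM in retrieval. They were highest in retrieval replicates 2 and 4, and 6 of them rose, against 3.67% of all tested genes. Over all genes, calls ranged from 330 to 1360 when 1 library was left out. Their number of calls was 3 to 9 when 1 library was left out, with 3 without replicate 3 or 4 of non-retrieval or replicate 2 or 4 of retrieval, 4 without non-retrieval replicate 1, and 9 when retrieval replicate 1 was left out. With the mean log2 CPM of these markers as a covariate the log2 ratio was 1.32 for Nr4a1, 1.46 for Nr4a2 and 1.63 for Nr4a3. The summed level of these markers did not overlap between the groups, so the covariate shares variation with retrieval itself. Smaller ratios and lost calls with it, here and in the other paragraphs, cannot be told apart from that sharing. The part of oligodendrocyte content in the NR4A values was not tested beyond this fit. Striatal markers (0 of 10 called by edgeR, 4 under 0.05 unadjusted, 1 called by DESeq2, and by edgeR 2 without retrieval replicate 1 or 4, 2 with the length and GC offset, 3 with the block and 4 with no filter) summed to 443 CPM in retrieval replicate 2 and to 254 to 316 CPM in the other 7 libraries. Without retrieval replicate 2 the NR4A values were 1.44, 1.66 and 1.80.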

How the data were processed

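Gene expression was measured by RNA-seq in 8 libraries, 4 per group. The authors deposited raw read counts per gene; per the submitters' processing notes they used HISAT2 2.0.5, featureCounts 1.5.0-p3 and the build GRCm38. No annotation release or strand setting is stated in the sources used here. Totals ran from 25013503 to 29547978 counts per library.

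Genes were filtered with filterByExpr, scaled with TMM, and compared with the quasi-likelihood F test of edgeR 4.0.16 (R 4.3.3; two-sided, Benjamini-Hochberg over 16745 genes, called at an adjusted p under 0.05). Standard errors are the log2 ratio divided by the root of F. CPM per kb divides CPM by the deposited gene length. Log2 CPM used a prior count of 2. No libraries of a group were alike within sampling noise. The fit was tested on simulated data. GC content came from GENCODE M21 transcripts (16727 genes, 99.9%), promoters from RefSeq GRCm38.p6, which matched all 3 members.

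The members, gene lists and tests were chosen with earlier results of these data known. Named genes are the members and RXR genes, called genes or up to 4 with the smallest p per list, the 5 most similar coding genes per member, and neighbouring genes; others (Crebbp, Atf3, Npas4, Fos, Th, Slc6a3, Slc18a2 and marker genes) were chosen after their values were seen. The values of 1 gene are not reported here. Alternatives were other scaling factors and filters, DESeq2 1.42.0, limma-voom (limma 3.58.1), the replicate number as a block, a length and GC offset, a myelin covariate, a stricter threshold, and each library left out.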

Additional observations from a re-analysis of the deposited data

Results flagged for a closer look

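The summed level of the 6 markers of midbrain dopamine neurons was 9.62 CPM in non-retrieval replicate 3, against 7.16 to 7.54 CPM in the other 3 non-retrieval libraries, a gap wide for a group of 4. Of 26 groups examined this way, covering the NR4A genes, their sum and the marker lists, this was the 1 that stood out, and chance gives about 1 in 20. None of the NR4A genes had such a library.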

How the results depend on the processing

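The log2 ratio of Nr4a1 ranged from 1.32 to 1.61, of Nr4a2 from 1.46 to 1.73 and of Nr4a3 from 1.63 to 1.86 over 18 alternatives, and moved by less than the spread between libraries except for Nr4a2 with the oligodendrocyte marker covariate (1.46, against 1.65). The number of genes changed in retrieval, 766, was 1619 with limma-voom, 1288 with the length and GC offset, 169 with the oligodendrocyte covariate and 238 at an adjusted p under 0.01; without 1 library it ranged from 330 (non-retrieval replicate 4) to 1360 (retrieval replicate 1), and it was 331 if non-retrieval replicate 3 was left out, 420 for retrieval replicate 3 and 397 for retrieval replicate 4. The cause was not tested, and the oligodendrocyte markers used as a covariate themselves differed between the groups. The share of higher calls was 80.3%, but 68.6% with limma-voom and 59.9% with the offset. No pairing is recorded in the labels. With the replicate block 1791 genes were called and the members stood at 1.5, 1.64 and 1.78; deviations of same-numbered libraries correlated at 0.03 to 0.22, and all 8 libraries correlated best with their own number, a hint from the data and not the design. Of the 32 called genes followed here, 16 were called under all 18 alternatives and none reversed. The genes most like each member were the same at a prior count of 0.5.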
